A study of Mus musculus with 56 samples.

Results

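Mitotic spindle and kinetochore genes were described in single epithelial tumor cells of the mouse colon. The set holds 55 genes, chosen by their symbols, and all 55 matched a row of the deposited table of 24410 Ensembl gene IDs. The cells came from 3 tumors, pooled, of 1 male mouse. It carried the Min allele of Apc, the tumor suppressor gene whose loss activates Wnt signaling, and was given 2% dextran sulfate sodium, which injures the colon lining, for 5 days beginning at 10 weeks. Tumors were taken at 12 weeks, and live cells were sorted for EpCAM and CD24 and against CD31 and CD45. A sequencing library was made only where a 32-cycle PCR of the cDNA had found Lgr5, a receptor gene of intestinal stem cells. The 56 libraries form 1 group, with no untreated or tumor-free cells, and the title of the series names PROX1, resistance to chemotherapy and quiescent cancer stem cells. All values below therefore describe the cells of a single animal; neither tests nor p-values are given, and how these genes differ between mice cannot be told from them.

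Cells that divide build a spindle of microtubules and attach each chromosome to it through kinetochores, the protein assemblies on the centromeres. Cyclin B with CDK1 starts mitosis, Polo-like and Aurora kinases direct its steps, and the spindle checkpoint holds the anaphase-promoting complex (APC/C) back until all chromosomes are attached. Kinesin motors move chromosomes and slide microtubules, and other proteins complete cell division. Most of these genes are transcribed in G2 and M phase, under the MuvB complex with B-Myb and FoxM1. These factors act at CHR elements near the start of transcription, often beside CCAAT boxes bound by NF-Y. In the intestine such cells are found mainly among the crypt progenitors and stem cells.

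Among the libraries, 6 pairs were nearly identical, with Pearson's r between 0.957 and 0.992 against 0.782 for the next pair, and the libraries of a pair were replaced by their mean, so that 50 cells remained. Library depth is unknown, because TPM, which scale each library to the same total of transcripts, carry no read counts. Seen means a level of at least 1 TPM, and a cell had 5902.5 genes seen at the median (range 1316 to 7234). Of 8 epithelial markers, all 8 were seen in each of the 9 cells rich in mitotic genes described below, and 7 or 8 in each cell poor in them. Lgr5 itself was seen in 38 of 50 cells. The summed TPM of 10 immune markers ran from 21.03 to 293 in the cells rich in mitotic genes and from 0 to 473 in those poor in them, with Ptprc and Cd3e seen in 0 cells, Cd14 in 37, Csf1r in 21 and Cd68 in 10. Of 6 endothelial markers 4 were seen in 0 cells, Vwf in 5 and Cdh5 in 1. Of 6 fibroblast markers 4 were seen in 0 cells, Pdgfra in 25 and Col1a1 in 1. The part of these markers in the results was not tested.

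Cells differed widely in how much of the set they held. The median cell had 10.5 of the 55 genes, and the range was 1 to 53. At least 28 genes, which is 50% of the set, were seen in 9 of 50 cells (18%, exact Clopper-Pearson 95% interval 8.58 to 31.4%). These are called member-rich cells. At most 13 genes, under 25% of the set, were seen in 35 of 50 cells (70%, interval 55.4 to 82.1%), called member-poor cells. The 6 other cells, called intermediate, had 15 to 27. Around the upper limit the nearest cells had 30 genes inside it and 27 outside it, and around the lower limit 13 inside and 15 outside. Intervals cover counting error only. Every contrast of these kinds of cells in the 55 genes follows from the way the cells were graded and is a description; the 35 member-poor cells were the same when each gene was graded by the other 54.

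The 2 sets of i7 sequencing indexes differed in their share of such cells. Cells with i7 indexes N708 to N710 had a median of 16.5 genes, and 6 of 18 (33.3%, interval 13.3 to 59.0%) were member-rich. Cells with N704 to N707 had a median of 8, and 3 of 32 (9.38%, interval 1.98 to 25.02%) were member-rich. The sources used here do not say whether these indexes mark cells handled apart. All 6 averaged pairs carried i7 indexes N708 to N710, and they gave 2 member-rich, 1 intermediate and 3 member-poor cells; without them 7 cells were member-rich and the median was 9 genes.

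**Figure D1:**
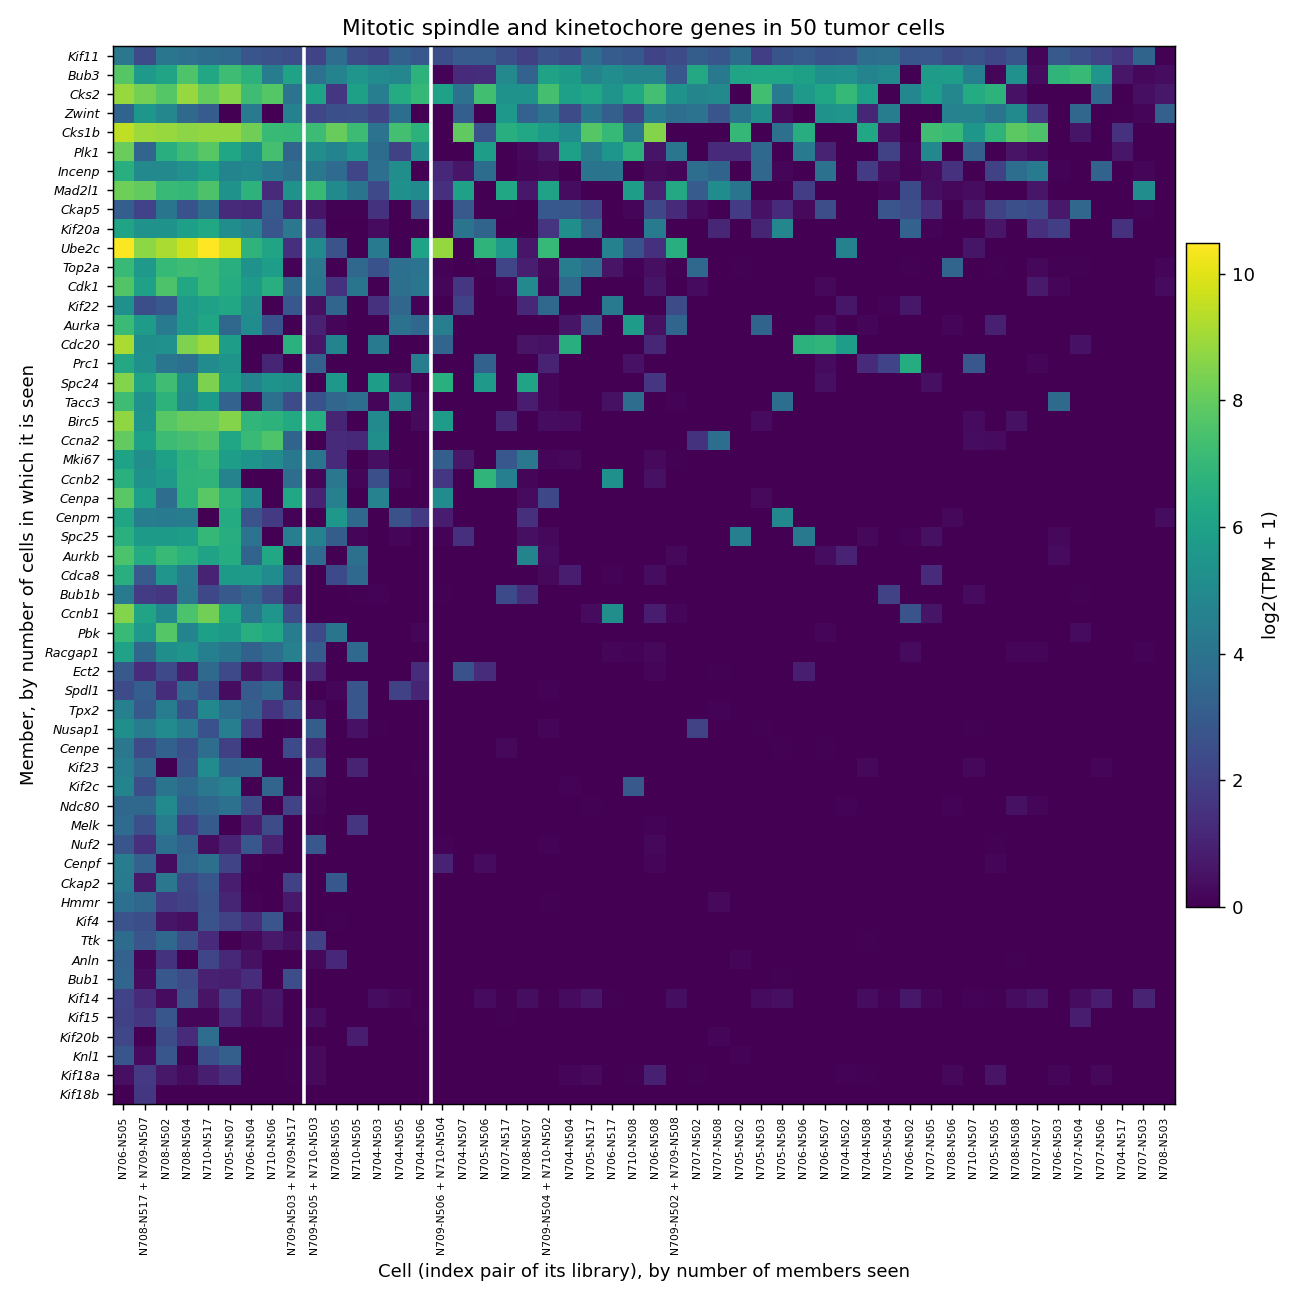
Levels of the 55 genes (rows, from the most to the least widely seen) in 50 cells (columns, from the most to the fewest genes seen), as log2(TPM + 1) in color. White lines part the 9 member-rich, 6 intermediate and 35 member-poor cells; rows at the top, such as Kif11 and Bub3, run through nearly all columns, and most lower rows hold values mainly at the left.

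Promoters are shown for genes at both ends of the detection range and for Plk1, since the set is known for shared promoter elements. Kif11, Bub3 and Cks2 were seen in the most member-poor cells. Racgap1, Spdl1 and Cenpe are, among genes with a known window that were seen in 0 of them, those seen in the most cells; Cenpe tied at 8 cells with Kif23 and Ndc80, whose windows each held the CHR letters, and stands for the 3. Each line gives 300 bases, 250 before to 50 after the annotated start, 5′ to 3′ on the strand of the gene, from RefSeq on GRCm38.p6; Bub3 has 2 annotated starts and the window nearest to its GENCODE start is given. Capitals mark TTTGAA (the CHR letters), CCAAT, and their reverse complements TTCAAA and ATTGG.
Kif11 (chr19:37376132-37376431, + strand): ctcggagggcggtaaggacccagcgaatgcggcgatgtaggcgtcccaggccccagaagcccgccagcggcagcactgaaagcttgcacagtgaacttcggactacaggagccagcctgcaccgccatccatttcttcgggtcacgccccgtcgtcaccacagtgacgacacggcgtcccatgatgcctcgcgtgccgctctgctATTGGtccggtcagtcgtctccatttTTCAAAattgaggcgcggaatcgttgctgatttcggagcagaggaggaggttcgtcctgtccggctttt
Bub3 (chr7:131560120-131560419, + strand): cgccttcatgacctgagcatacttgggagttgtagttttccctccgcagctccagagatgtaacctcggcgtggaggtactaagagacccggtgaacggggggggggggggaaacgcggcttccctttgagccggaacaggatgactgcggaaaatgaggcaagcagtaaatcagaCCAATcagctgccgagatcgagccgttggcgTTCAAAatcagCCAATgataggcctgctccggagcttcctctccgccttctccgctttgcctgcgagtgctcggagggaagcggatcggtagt
Cks2 (chr13:51644982-51645281, + strand): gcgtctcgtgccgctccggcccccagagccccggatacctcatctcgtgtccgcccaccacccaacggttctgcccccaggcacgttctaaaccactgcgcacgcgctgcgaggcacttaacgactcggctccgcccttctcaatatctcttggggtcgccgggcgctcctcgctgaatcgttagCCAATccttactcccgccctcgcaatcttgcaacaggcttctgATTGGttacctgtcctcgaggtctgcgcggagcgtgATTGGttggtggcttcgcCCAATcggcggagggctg
Racgap1 (chr15:99651607-99651906, − strand): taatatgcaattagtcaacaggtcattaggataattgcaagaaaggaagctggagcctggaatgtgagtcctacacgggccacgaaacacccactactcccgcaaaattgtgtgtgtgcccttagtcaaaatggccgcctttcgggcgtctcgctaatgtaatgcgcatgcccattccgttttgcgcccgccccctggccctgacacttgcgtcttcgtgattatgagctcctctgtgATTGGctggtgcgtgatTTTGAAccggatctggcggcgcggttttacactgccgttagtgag
Spdl1 (chr11:34833592-34833891, − strand): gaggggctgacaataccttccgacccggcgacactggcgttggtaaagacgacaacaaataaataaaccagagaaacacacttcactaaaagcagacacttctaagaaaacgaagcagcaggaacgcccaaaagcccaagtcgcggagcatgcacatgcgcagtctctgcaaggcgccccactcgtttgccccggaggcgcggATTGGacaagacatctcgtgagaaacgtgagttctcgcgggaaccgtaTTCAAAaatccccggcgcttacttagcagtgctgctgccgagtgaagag
Cenpe (chr3:135212313-135212612, + strand): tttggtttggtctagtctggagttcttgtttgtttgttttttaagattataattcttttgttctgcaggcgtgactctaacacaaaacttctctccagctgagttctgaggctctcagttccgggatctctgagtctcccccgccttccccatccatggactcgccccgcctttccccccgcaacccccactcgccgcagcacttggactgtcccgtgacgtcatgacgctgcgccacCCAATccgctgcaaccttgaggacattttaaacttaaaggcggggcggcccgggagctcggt
Plk1 (chr7:122159185-122159484, + strand): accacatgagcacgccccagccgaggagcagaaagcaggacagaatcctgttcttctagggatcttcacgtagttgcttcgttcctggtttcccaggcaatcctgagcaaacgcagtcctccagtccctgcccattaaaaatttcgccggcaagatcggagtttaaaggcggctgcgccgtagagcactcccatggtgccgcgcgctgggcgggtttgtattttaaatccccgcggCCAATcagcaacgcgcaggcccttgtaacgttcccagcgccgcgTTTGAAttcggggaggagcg

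Kif11, Bub3, Racgap1, Spdl1 and Plk1 each held the CHR letters, at positions that lay close to the start: 19 bases before it in Kif11, 43 before it in Bub3 and 30 after it in Plk1. Cks2 and Cenpe held none, but Cks2 held 4 CCAAT matches and Cenpe 1. Of the 55 genes, 48 had a promoter in the RefSeq table. The CHR letters, on either strand, were in 35 of these 48 windows (72.9%), against 20.2% of the 27025 genes with a window. CCAAT, on either strand, was in 35 of 48 windows (72.9%) against 41.1%, and at least 2 copies in 25 (52.1%) against 13.3%. Both motifs were in 29 of 48 (60.4%) against 7.97%. The E2F letters TTTGGCGC or TTTCGCGC, on either strand, were in 3 of 48 (6.25%) against 0.929%. No motif contains another, and a match is a description of the sequence, not a bound site. Of the 9 genes seen in at least 25 cells, 8 had a window; 5 of these held CHR letters (62.5%) and 7 held CCAAT (87.5%), against 30 (75%) and 28 (70%) of the 40 other windows.

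How often each gene was seen varied from 48 of 50 cells for Kif11 to 1 for Kif18b, with a median of 12 cells. The same median was 2 cells over all 24410 IDs and 18 over the 14034 IDs seen in at least 1 cell. All 55 genes were seen in at least 1 cell. At least 25 cells held 9 of the 55 genes, while 22.6% of all 24410 IDs were seen in that many, so this share of the set was below that of all IDs. In member-poor cells 20 genes were seen in 0 cells, 24 in 1 to 6 cells and 11 in more. The shares of all IDs in these classes are not given, so nothing is read from these counts. At least 18 of the 35 member-poor cells held 5 of the 55 genes, against 20.4% of all IDs: Kif11 (33 cells), Bub3 (28), Cks2 (26), Zwint (25) and Cks1b (21). They were followed by Ckap5 (16), Plk1 and Incenp (14 each), Kif20a (13), Mad2l1 (12) and Ube2c (9). The grade is no call of cycling. Mki67 and Top2a, which mark cycling cells, were both under 1 TPM in 28 of the 35 member-poor cells, and in no cell of another kind. These 28 cells held 1 to 12 of the 55 genes (median 7), and 25 of the genes were seen in 0 of them, again without the share of all IDs. Mki67 and Top2a are among these 25 by the choice of the cells, so the counts are a description. Kif11 was seen in 26 of the 28, Bub3 in 22, Cks2 and Zwint in 19 each, Cks1b in 16, Ckap5 in 14, Plk1 in 12, Kif20a in 11 and Incenp in 10, while Cdk1 was seen in 1 and Ccnb1 in 2. In the 7 other member-poor cells Mki67 or Top2a was seen, both in 1 of them. The 28 cells include N708-N508, in which 20 of 24 DNA replication genes were seen, so their choice is no call of cells outside the cycle. At least 50% of the cells with neither Mki67 nor Top2a held 6 of the 55 genes. With cells chosen instead by fewer than 25% of the replication genes seen, that count was 4. The shares of all IDs in these cells are not given, and Mki67 and Top2a could not be among the 6. Nothing is therefore read from either count.

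The 9 genes seen in at least 25 cells, which are the 5 above with Plk1, Incenp, Mad2l1 and Ckap5, were set apart from the 46 others. Member-rich cells held 8 or 9 of the 9 widely seen genes (median 9) and 22 to 44 of the 46 others (median 39). Intermediate cells held 7 to 9 of the 9 (median 8) and 7 to 19 of the 46 (median 10.5). Member-poor cells held 1 to 8 of the 9 (median 6) and 0 to 9 of the 46 (median 2). As the split was made by how widely the genes were seen, these counts are a description. In 5 member-poor cells none of the 46 was seen, and in 14 at most 1.

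**Figure D2:**
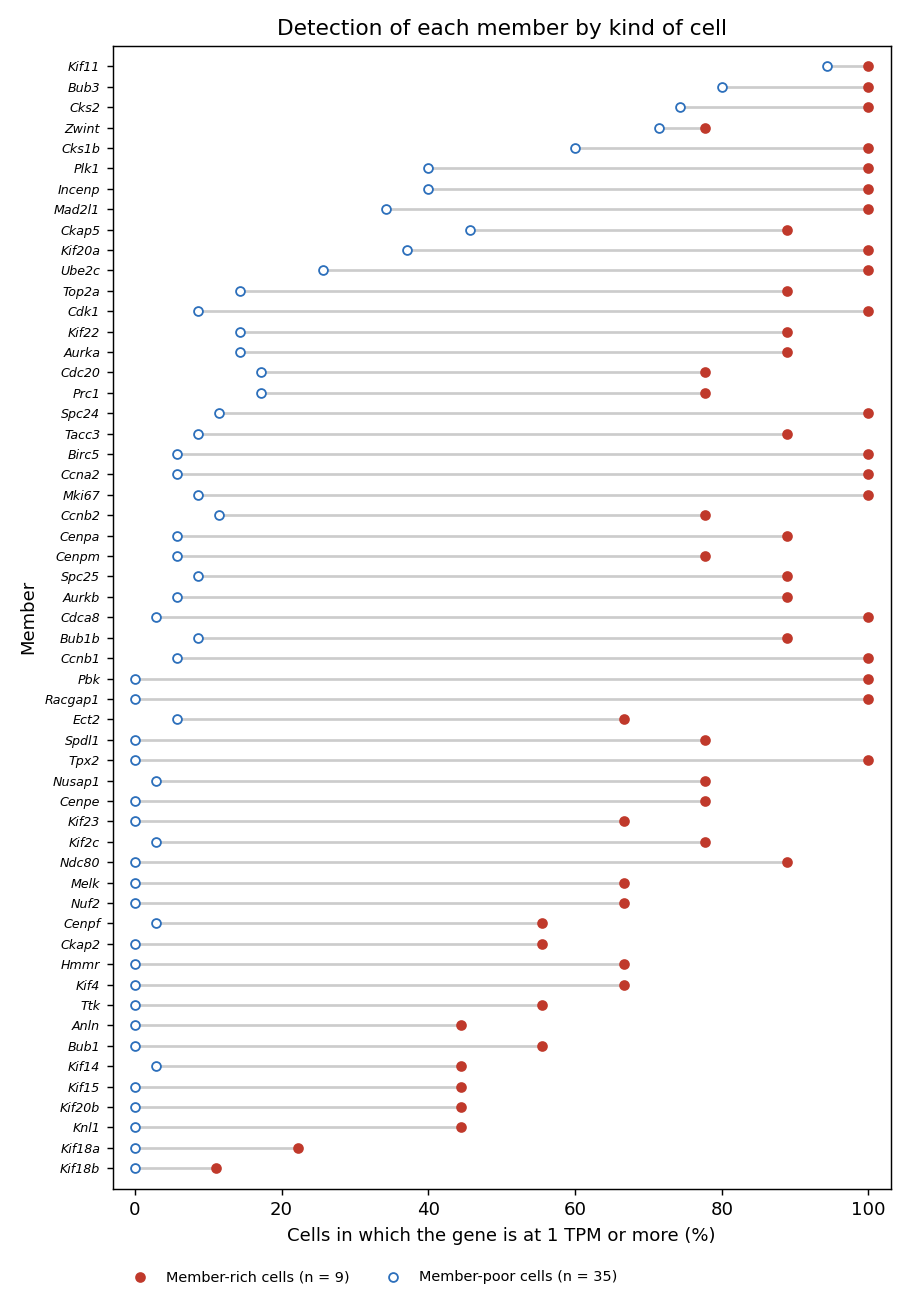
Share of cells (horizontal axis, percent) in which each of the 55 genes was at 1 TPM or more, in the 9 member-rich cells (filled) and the 35 member-poor cells (open). Kif11 and Zwint show the shortest lines, 100% against 94.3% and 77.8% against 71.4%, and 20 genes lie at 0% in member-poor cells. The share of all IDs at 0% there is not given.

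Kif11, the plus-end kinesin that slides spindle microtubules apart (ENSMUSG00000012443, chr19:37376403-37421859, + strand, GRCm38), had a narrow range of levels. It ran from 4.36 to 16.8 TPM in member-rich cells (median 11.1) and from 0.05 to 13.5 TPM in member-poor cells (median 5.52). The lower limit in member-poor cells comes from 2 cells at 0.05 and 0.13 TPM, and the other 33 lay at 2.12 TPM or more, so both kinds of cells overlapped nearly throughout. Kif11 is the only one of the 11 kinesins seen in most member-poor cells. By rank its level followed the rest of the set less than most genes did. Spearman's rho with the mean of the other 54 genes was 0.24 across 50 cells, against a median of 0.59 over the 55 genes. Within i7 indexes N708 to N710 this rho was 0.40, and within N704 to N707 it was 0.19. Pearson's r across all cells was 0.43. At a threshold of 10 TPM, Kif11 was seen in only 12.2% of the cells then member-poor. These correlations, here and below, compare genes of the same libraries, which share their depth.

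Cks2 and Cks1b encode small subunits that bind cyclin-dependent kinases, and CKS1B in human cells also helps the SCF ligase to degrade the inhibitor p27. Cks2 (ENSMUSG00000062248, chr13:51645232-51650660, + strand) ran from 15.1 to 471 TPM in member-rich cells (median 253) and from 0 to 165 TPM in member-poor cells (median 39.9). Cks1b (chr3:89415472-89418383, − strand) ran from 130 to 713 TPM in member-rich cells (median 434) and from 0 to 374 TPM in member-poor cells (median 17.6). Both genes were thus seen in most member-poor cells but at lower levels, and the kinds of cells overlapped. They followed the set more closely than Kif11 by rank, with rho of 0.65 for Cks2 and 0.57 for Cks1b. Pearson's r was nearer to that of Kif11 (0.43), at 0.56 for Cks2 and 0.55 for Cks1b.

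Plk1, the Polo-like kinase of mitotic entry, spindle assembly and cytokinesis (ENSMUSG00000030867, chr7:122159439-122169873, + strand), was seen in 14 of 35 member-poor cells. It ran from 9.66 to 270 TPM in member-rich cells (median 95.03), from 3.04 to 43.9 TPM in intermediate cells (median 30.1) and from 0 to 107 TPM in member-poor cells (median 0.45). Most member-poor cells had little or none, and some had values inside the range of member-rich cells. Its rho with the other 54 genes was 0.68, and it was seen in all 9 member-rich and all 6 intermediate cells.

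Of the 6 cyclin, CDK1 and CKS genes, the 4 others were seen in few member-poor cells. Ccnb1, the B-type cyclin of mitotic entry, ran from 4.41 to 369 TPM in member-rich cells (median 68.2) and was listed at 0 in all 6 intermediate cells. In member-poor cells it was seen in 2 of 35, at 5.37 and 35.7 TPM. Cdk1, its kinase, ran from 10.6 to 199 TPM in member-rich cells (median 89.9), was seen in 5 of 6 intermediate cells (median 14.6 TPM) and in 3 member-poor cells. Cyclin B1 and CDK1 thus differed in the intermediate cells. Ccna2, the cyclin of S and G2 phase, was seen in 9 of 9 member-rich, 3 of 6 intermediate and 2 of 35 member-poor cells. Ccnb2, a second B-type cyclin, was seen in 7, 2 and 4 of these cells, with a highest value of 114 TPM in a member-poor cell and 114 TPM in a member-rich cell.

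**Figure D3:**
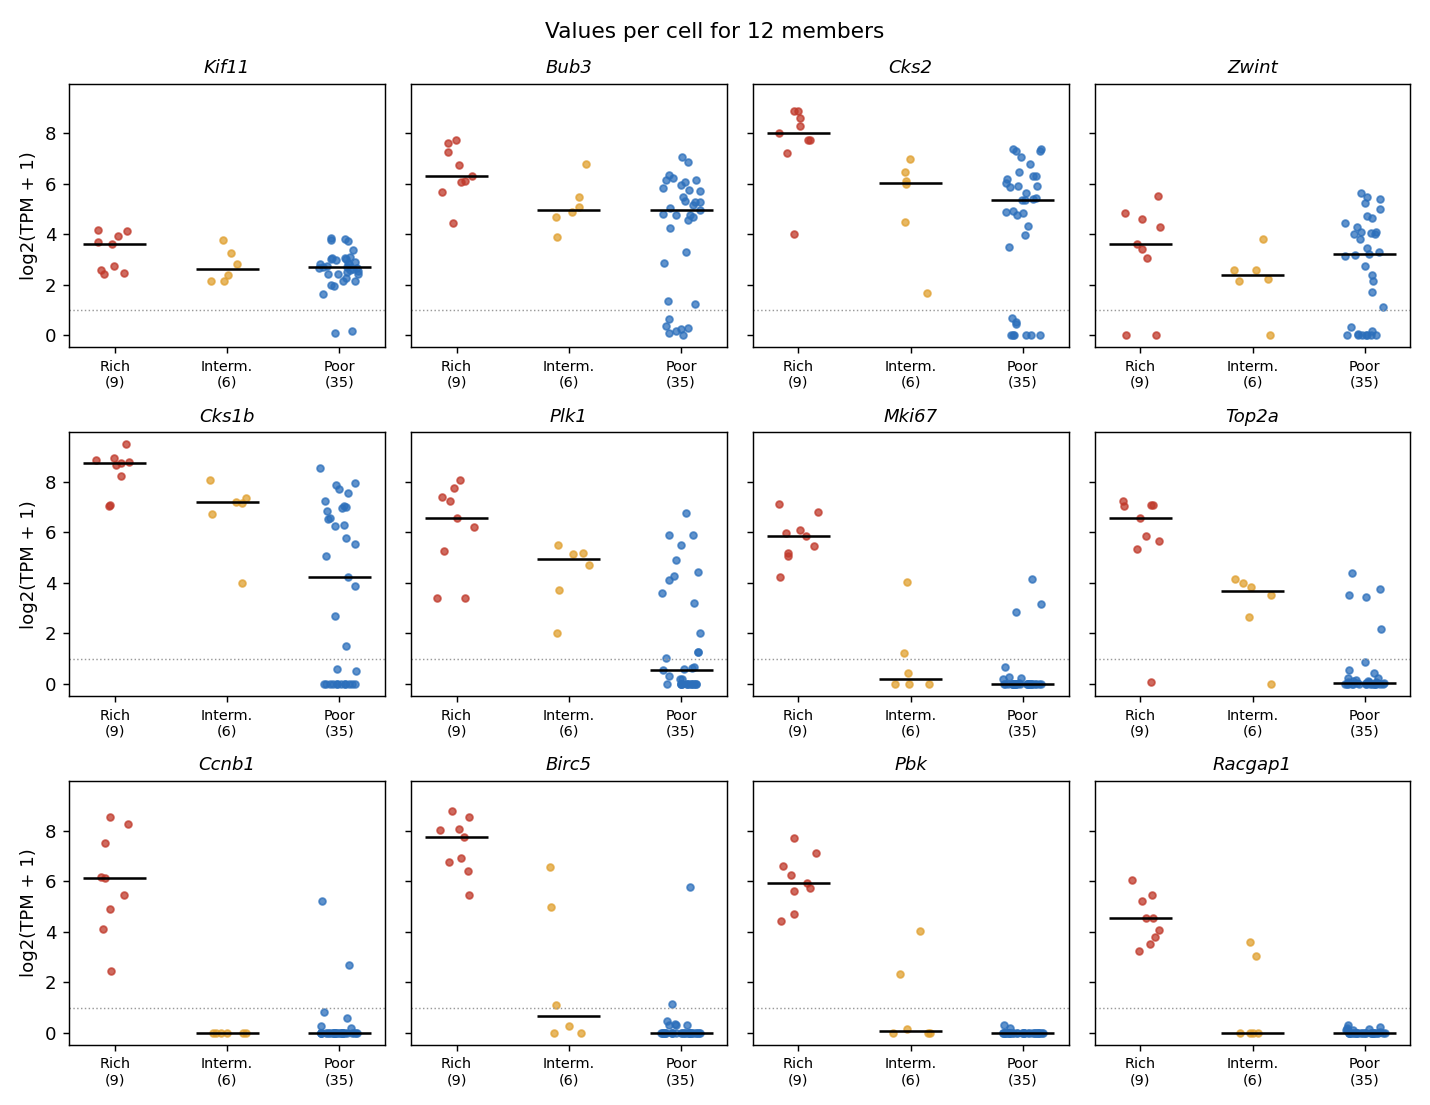
Level of 12 of the genes in each cell, as log2(TPM + 1), in the 9 member-rich (left), 6 intermediate (middle) and 35 member-poor cells (right). Bars are medians and the dotted line is 1 TPM; points of Kif11, Bub3 and Zwint overlap between kinds of cells, and those of Pbk and Racgap1 in member-rich cells lie above all in member-poor cells.

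Each of the other mitotic kinases was seen in fewer member-poor cells than Plk1, which was seen in 14 of 35. Aurka, the Aurora kinase of the spindle poles, was seen in 8 of 9 member-rich and 5 of 35 member-poor cells. Pbk, a mitotic kinase also called TOPK, ran from 20.7 to 209 TPM in member-rich cells (median 59.6), while its highest value in a member-poor cell was 0.25 TPM. Ttk, the checkpoint kinase MPS1, and Melk were seen in 5 and 6 member-rich cells and in 0 member-poor cells.

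The chromosomal passenger complex consists of the kinase Aurora B with INCENP, survivin and borealin, and corrects attachments of chromosomes to the spindle. Its scaffold gene Incenp was seen most widely, from 13.7 to 95.3 TPM in member-rich cells (median 29.3) and from 0 to 18.4 TPM in member-poor cells (median 0.215, 14 of 35 seen). Birc5, which encodes survivin, ran from 42.6 to 432 TPM in member-rich cells (median 214) and was seen in 2 of 35 member-poor cells, at up to 52.9 TPM. Aurkb was seen in 8 of 9 member-rich and 2 member-poor cells, and Cdca8, which encodes borealin, in 9 of 9 and 1. The 4 genes of the complex were thus not seen equally often in member-poor cells, and no such cell held more than 2 of the 4.

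Of the 6 checkpoint and APC/C genes, Bub3, a checkpoint protein with WD40 repeats, was seen in 43 of 50 cells. It ran from 20.7 to 210 TPM in member-rich cells (median 77.7) and from 0 to 133 TPM in member-poor cells (median 29.98). Its checkpoint partners were seen far less: Bub1b, which encodes BUBR1, in 8 of 9 member-rich and 3 member-poor cells, and Bub1 in 5 and 0. Mad2l1, which encodes MAD2, ran from 1.44 to 285 TPM in member-rich cells (median 126) and from 0 to 80.3 TPM in member-poor cells (median 0.26). Ube2c, an E2 enzyme of the APC/C, reached the highest values of the set, from 1.74 to 1432 TPM in member-rich cells (median 565); it was seen in 9 member-poor cells, at up to 449 TPM. Cdc20, the APC/C activator, was seen in 7 of 9 member-rich and 6 member-poor cells, at up to 569 and 114 TPM.

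Of the 11 centromere and kinetochore genes, Zwint, whose protein binds the KNL1 scaffold, stood apart by following the set least. It ran from 0 to 44.9 TPM in member-rich cells (median 11.2) and from 0 to 47.9 TPM in member-poor cells (median 8.29), with rho of 0.02 to the other 54 genes. It was unseen in 2 of 9 member-rich cells, and Knl1 was seen in 4 member-rich cells only. Spc24, of the NDC80 complex that grips microtubules, ran from 24.5 to 375 TPM in member-rich cells (median 52.3) and was seen in 4 member-poor cells. Its partners Spc25, Ndc80 and Nuf2 were seen in 8, 8 and 6 member-rich cells and in 3, 0 and 0 member-poor cells. Cenpa, the centromeric histone variant, was seen in 8 member-rich and 2 member-poor cells. Spdl1, a dynein adaptor at kinetochores, was seen in 7 and 0.

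The other 10 kinesins were seen in at most 23 cells. Kif20a, a motor of the central spindle, was the next after Kif11: it ran from 6.07 to 75.4 TPM in member-rich cells (median 39.8) and from 0 to 36.3 TPM in member-poor cells, where 13 of 35 had it. Intermediate cells had it less often, in 1 of 6. Kif20a lies on chromosome 18 and overlaps Cdc23, an APC/C subunit gene on the opposite strand that was seen in 22 cells; the sources used here do not say whether reads were counted by strand. Kif2c and Kif23, a microtubule depolymerase and a motor of the midbody, were seen in 7 and 6 member-rich cells and in 1 and 0 member-poor cells. Kif18a and Kif18b, which limit microtubule length, were the least often seen, in 2 and 1 of 50 cells, both at under 3 TPM in every cell.

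Among 7 spindle microtubule genes, Ckap5, which encodes the microtubule polymerase ch-TOG, was seen in 8 of 9 member-rich, 2 of 6 intermediate and 16 of 35 member-poor cells, at up to 15.7 TPM in member-rich and 10.0 TPM in member-poor cells. Tpx2, the activator of Aurora A, ran from 1.98 to 28.8 TPM in member-rich cells (median 8.43) and was at most 0.07 TPM in member-poor cells. Prc1, which bundles antiparallel microtubules, was seen in 7 member-rich and 6 member-poor cells. Among the 3 cytokinesis genes, Racgap1, of the centralspindlin complex, ran from 8.54 to 64.3 TPM in member-rich cells (median 22.3) and was at most 0.25 TPM in member-poor cells. Its binding partner Ect2, an exchange factor of cytokinesis, was seen in 6 and 2 of these cells.

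Of the 2 chromosome protein genes, Mki67, which coats mitotic chromosomes, ran from 17.8 to 137 TPM in member-rich cells (median 57.4) and from 0 to 16.9 TPM in member-poor cells (median 0). Top2a, the topoisomerase that untangles sister chromatids, ran from 0.06 to 150 TPM in member-rich cells (median 94.2) and from 0 to 20.2 TPM in member-poor cells (median 0.04). In the intermediate cells Top2a was seen in 5 of 6 and Mki67 in 2 of 6. In 6 of the 55 genes every member-rich cell lay above every member-poor cell, namely Mki67, Pbk, Racgap1, Tpx2, Spdl1 and Kif4, with the lowest member-rich value of the last pair under 1 TPM; among all genes seen in a cell 0.0641% did so, and as these genes graded the cells nothing is read from it.

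No cell held all 55 genes (0 of 50, interval up to 7.11%; a count of 0 allows up to 6%). The nearest were 6 cells with 47 to 53 genes, a group set apart after the values were seen. The cell with indexes N706 and N505 had 53, the averaged pair N708-N517 and N709-N507 had 50 (49 and 50 in its libraries), N708-N502 had 49, N708-N504 and N710-N517 had 48 each, and N705-N507 had 47. The next cell had 36, followed by 32 and 30. The 55 genes summed to between 2649 and 7587 TPM in the 6 cells and to at most 1656 TPM in any other.

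In the 6 fullest cells 36 of the 55 genes were seen in all 6, 9 in 5 and 10 in fewer, and all 55 were seen in at least 1. The 6 cells were chosen for holding the most of these genes, and the shares of all IDs are not given. These counts are therefore a description. The cell with 53 genes lacked Kif18a and Kif18b alone. The genes most often missing were Kif18b, seen in 1 of the 6 cells, Kif18a in 2 and Bub1 in 3. Ccnb1 ranged among these 6 cells from 29.1 TPM in N708-N502 to 369 TPM in N706-N505. The 3 further member-rich cells lacked more than rare genes. Those with 36 and 32 genes both lacked Ccnb2 and Cdc20, and the cell with 30 genes, an averaged pair, lacked Aurka, Aurkb and Top2a, with Ccnb1 at 4.41 TPM. The 55 genes took from 0.0781 to 0.759% of all TPM in member-rich cells and from 0.000698 to 0.0747% in member-poor cells.

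The 6 intermediate cells held an uneven share of the set. Bub3, Cks1b, Cks2, Kif11, Mad2l1 and Plk1 were seen in all 6, and Cdk1, Incenp, Top2a and Zwint in 5. Ccnb1, Bub1, Bub1b, Kif2c and Ndc80 were among 14 genes seen in 0. These cells were graded by the same genes and the shares of all IDs are not given, so nothing is read from these counts. Of 24 DNA replication genes the intermediate cells had 11 to 22 (median 19.5). Member-rich cells had 17 to 23 (median 21) and member-poor cells 1 to 20 (median 8).

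**Figure D4:**
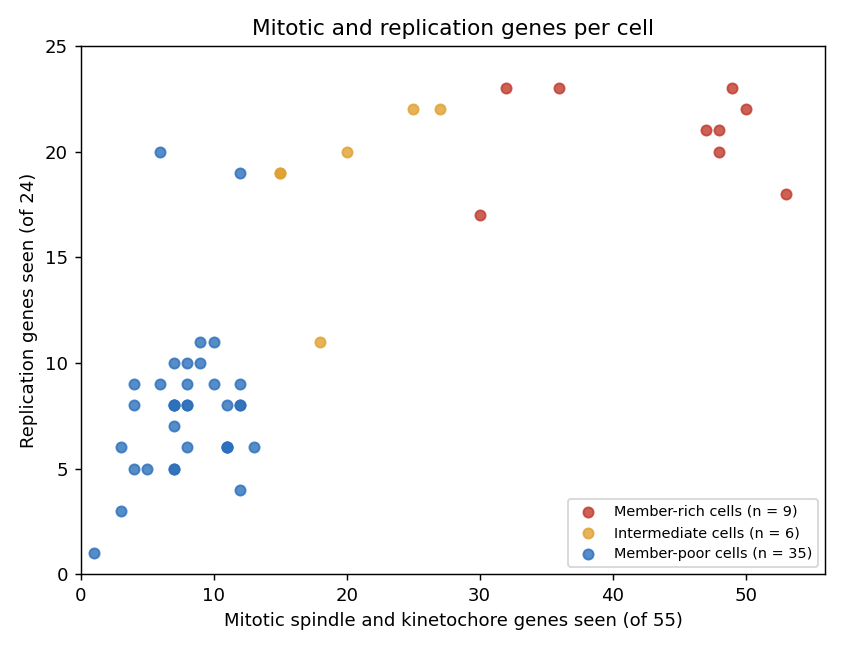
Number of the 55 mitotic genes (horizontal axis) and of 24 DNA replication genes (vertical axis) seen in each of 50 cells, with member-rich, intermediate and member-poor cells in separate colors. Member-rich cells have 17 to 23 replication genes, 5 of the 6 intermediate cells 19 to 22, and all but 2 of the member-poor cells 11 or fewer.

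Across the 50 cells the mean level of the 55 genes and that of the replication genes had Spearman's rho of 0.64 and Pearson's r of 0.69, on log2(TPM + 1); without the 2 cells farthest from the median, r was 0.65. Both means come from the same libraries and share their depth, composition and any failed capture. Within i7 indexes N708 to N710 rho was 0.55, within N704 to N707 it was 0.49, and among the 35 member-poor cells it was 0.13. In 2 member-poor cells, N708-N508 with 6 of the 55 genes and N708-N507 with 12, 20 and 19 replication genes were seen. Single replication genes also differed in how widely they were seen. Mcm5, of the replicative helicase, was seen in 9 of 9 member-rich and 4 of 35 member-poor cells, while Pcna, the sliding clamp, was seen in 9 and 32.

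Other gene lists were described by how many genes were seen in at least 50 percentage points more of the member-rich than of the member-poor cells. Of the 55 genes 42 met this, as the grading favors, against 2.35% of the 14034 IDs seen in a cell. Of 35 further mitotic genes 26 met it, and of 24 replication genes 16, against 2.06% of all IDs outside the 55; the opposite difference was met by 0.0358% of those IDs and by none of either list. Espl1, which encodes separase, was seen in 7 of 9 member-rich and 0 of 35 member-poor cells, and the condensin gene Ncaph in 9 and 3. Some mitotic genes outside the set were also widely seen in member-poor cells: the phosphatase gene Cdc25c was seen in 9 of 9 member-rich and 34 of 35 member-poor cells, and the securin gene Pttg1 in 8 and 26.

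Of 15 APC/C genes, which are core subunit genes and the activator gene Fzr1, 0 met the same difference. This share is near the 2.06% of all IDs outside the 55, and most of the 15 were seen in too many member-poor cells to be able to meet it. Anapc5 was seen in 9 of 9 member-rich and 32 of 35 member-poor cells, and Anapc2 in 5 and 25. Of 14 genes of the MuvB, B-Myb, FoxM1 and E2F regulators 2 met it: Foxm1 in 7 and 2 cells, and Mybl2, which encodes B-Myb, in 7 and 3. Of 7 CDK inhibitor genes 0 met it, which is also near 2.06%. Cdkn1a, which encodes p21, was seen in 8 and 29 cells, and Cdkn1b in 6 and 19. Both were seen in too many member-poor cells to meet it, and Cdkn2a was seen in 0 cells, so nothing is read from this count. The epithelial, goblet, colonocyte, enteroendocrine, tuft, immune, endothelial and fibroblast lists each had 0 genes in either direction, which is near the 2.06% higher and 0.0358% lower among all IDs outside the 55. The epithelial genes were seen in 33 to 35 of the 35 member-poor cells and could not be higher by that much, and several genes of the other lists were seen in 0 cells, so nothing is read from these counts.

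Prox1, the factor in the title of the series, ran from 0.05 to 49.2 TPM in member-rich cells (median 2.92) and from 0 to 66.8 TPM in member-poor cells (median 20.03). It was seen in 6 of 9 member-rich and 30 of 35 member-poor cells, and the kinds of cells overlapped. Among the 6 fullest cells it ranged from 0.51 TPM in N705-N507 to 18.7 TPM in the averaged pair.

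Over all genes, 5923 to 7234 were seen in member-rich cells (median 6325), 5966 to 7010 in intermediate cells (median 6542.5) and 1316 to 6484 in member-poor cells (median 5676). Gm10925, the transcript with the largest share in some libraries, took 5.75 to 15.8% of TPM in member-rich cells (median 7.03%) and 1.12 to 85.1% in member-poor cells (median 8.69%). The part of these values in the number of mitotic genes seen was not tested. The cell with the fewest genes, N708-N503, was also the cell with 1 mitotic gene, and without it there were 9 member-rich and 34 member-poor cells.

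Reads of some of the 55 genes can be shared with other annotated sequences. By sequence, 7 of them, Ccnb1, Cks2, Mad2l1, Mki67, Ndc80, Pbk and Racgap1, have copies elsewhere with at least 95% identity over at least 200 bases; of all these copies only 2700099C18Rik, a copy of Ndc80, is in the deposited table, so values of all 7 can include reads from copies. Another annotated gene overlaps 29 of the 55, such as Fgfr2 on the strand opposite Bub3, seen in 11 cells, and Tmem129 opposite Tacc3, seen in 34 cells. Kif11 overlaps the processed pseudogenes AC137605.4, on the same strand, and AC137605.6, on the opposite strand. Neither is in the deposited table, and their part in the wide detection of Kif11 was not tested.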

How the data were processed

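Single-cell RNA-seq values of 56 libraries were taken as the TPM that the authors deposited, over 24410 Ensembl IDs. Per the submitters' processing notes, bcl2fastq 1.8.4, Bowtie2 2.2.9, RSEM 1.2.31 and GRCm38.p4 were used; settings, annotation release and use of strand were not given in the sources used here. Symbols and coordinates came from GENCODE M21 on GRCm38, with 24235 IDs matched and 175 without a symbol, and promoters from RefSeq on GRCm38.p6. TPM hold no read counts, so the depth and precision of each library are unknown, and a value of 0 was read only as listed at 0.

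Libraries with Pearson's r above 0.9, over log2(TPM + 1) of genes seen in 20% of libraries, were averaged. Genes were seen at 1 TPM or more. Shares of cells carry exact Clopper-Pearson 95% intervals. Correlations are Spearman's rho, or Pearson's r where named, on log2(TPM + 1). No doublet caller was run, since TPM hold no counts and cells were sorted singly. The labels name 1 group, so no comparison of conditions was made and cells were not treated as replicates. The ranking of genes by rho was checked on simulated data.

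The genes, lists and tests were chosen with earlier results of these data known. The genes named are members of the set, members of the described lists, and the 10 genes outside the set most alike to it by rho, seen in 20% of cells. Some examples, and the split at 47 genes, were chosen after values were seen. Near-identical copies were sought with BLAST 2.17.0 at 95% identity over 200 bases. Alternatives were thresholds above 0 and of 10 TPM, pseudocounts of 0.1 and 10, other limits for the kinds of cells, the 56 libraries as cells, the first library of each pair, TPM without ribosomal protein genes and Gm10925, subtraction of 0.0168% carry-over between libraries that share an index, leaving out the cell with the fewest genes, and, added after the data were seen, leaving out the averaged pairs. Scripts ran in Python 3.11.15 with SciPy 1.17.1, pandas 2.3.3, numpy 2.4.6 and matplotlib 3.10.9.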

Additional observations from a re-analysis of the deposited data

How the results depend on the processing

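The threshold for calling a gene seen moved the counts most. Above 0 TPM, 16 cells were member-poor in place of 35, and 9 genes in place of 5 were seen in at least 50% of them; Kif11 and Bub3 were then seen in 100% of these cells. At 10 TPM, 3 genes in place of 9 were seen in at least 50% of all cells, and 3 in place of 5 in at least 50% of member-poor cells. The Spearman correlation between mitotic and replication genes was 0.49 within i7 indexes N704 to N707, against 0.64 over all cells, and the cause was not tested. The other 67 values of the main counts and correlations moved by at most 1.5 times (counts), by less than 0.1 (correlations) or by less than the spread between cells or genes (medians), with 6 to 12 member-rich cells and a median of 6 to 16 genes per cell, and 0 cells held all 55 genes under any alternative run. No paired analysis was possible because the labels name a single group. Depth is unknown, so genes not seen may have been missed at capture or sequencing.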

Other observations

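Of 9131 genes outside the set that were seen in at least 20% of cells and could be ranked, the 10 whose levels were most like the mean of the 55 genes across 50 cells were mostly abundant genes seen in nearly all cells. Tuba1b, an alpha-tubulin gene, had the highest rho (0.79), with 1205 to 6110 TPM in member-rich cells (median 3191) and 0 to 1294 TPM in member-poor cells (median 307). Ptma, which encodes prothymosin alpha, had the same rho to 2 decimals (0.79) and was seen in all 50 cells. H2afz, a histone variant gene (rho 0.75), ran from 3850 to 8230 TPM in member-rich cells and from 5.98 to 3746 TPM in member-poor cells. These cells were thus parted in it by a narrow gap, and 0.0641% of all genes seen in a cell were parted in this direction. The chromatin protein genes Hmgn2 (0.75) and Hmgb1 (0.72), with Selenoh, Gm12504 and Rbm3 (0.74 each), were likewise seen in at least 42 cells. Only Cdca3 (0.74), a mitotic gene of the further list, and Rpa2 (0.72), a subunit gene of replication protein A, were seen in fewer, 20 and 16 cells. Within i7 indexes N704 to N707 rho of the 10 genes ran from 0.48 (Rpa2) to 0.81 (Rbm3). Within N708 to N710 it ran from 0.46 (Rbm3) to 0.87 (Tuba1b and H2afz). These genes share libraries and their depth with the set, and cells were graded by it, so the values are descriptions.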
